A study of Monodelphis domestica with 2 samples.

Results

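Endothelial cells, which line the blood vessels of the brain, formed the smallest non-neuronal subclass of a single-nucleus RNA sequencing atlas of primary visual cortex from a marsupial, Monodelphis domestica (the gray short-tailed opossum). The nuclei were taken as those that the authors' deposited annotation assigns to the subclass Endo, and 65 were found among 8267 labelled non-neuronal nuclei and 32764 labelled nuclei in all. The series holds a single group of 2 adult male opossums, aged 1.5 and 2 years, with no treatment and no genetic change. Tissue of both hemispheres was flash-frozen and pooled within an animal, nuclei were sorted by their DNA stain, and each animal's suspension was split into 2 droplet libraries (1A and 1B of animal 1, 2A and 2B of animal 2), so that the animal was the replicate throughout. Different experimenters handled the replicates, and the animals also differed in age, so that neither can be told apart from the animal. Endo nuclei were compared with the other non-neuronal subclasses of the annotation, the oligodendrocytes (OD, 4047 nuclei), astrocytes (Astro, 2089), oligodendrocyte precursors (OPC, 1343) and microglia (Micro, 723).

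Brain endothelial cells are the cellular wall of the blood-brain barrier. They seal the space between neighbouring cells with tight junctions built around claudin-5, take up little fluid in vesicles, and import glucose, amino acids, iron and lipids through dedicated carriers. Wnt ligands made by other cells of the neural tissue act on Frizzled receptors of the endothelium and, through beta-catenin and TCF/LEF factors, keep this barrier programme on. Growth of the vessels and contact with the pericytes and smooth muscle around them run through VEGF, angiopoietin, Notch, BMP and PDGF signals.

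The 4 libraries held from 55625042 to 69706055 unique molecular identifiers (UMIs, each standing for 1 captured RNA molecule). The Endo nuclei were few and shallow. Animal 1 gave 29 of them (8 in library 1A and 21 in 1B) and animal 2 gave 36 (17 in 2A and 19 in 2B), and none of their barcodes occurred in a second library. They made up 0.619% of the labelled non-neuronal nuclei of animal 1 (exact 95% binomial interval 0.415 to 0.887) and 1.01% of those of animal 2 (0.705 to 1.39), a mean of 0.812% ± 0.274 (SD, n = 2 animals). The intervals of the animals overlapped, while libraries 1A (0.347%) and 1B (0.881%), cut from the same suspension, lay further apart than the animals did. An Endo nucleus held a median of 1414 UMIs, close to Micro (1429.5 and 1483 in the animals) and below OD (1924 and 1909), Astro (2522 and 2781) and OPC (2551 and 2619). All UMIs of the Endo nuclei of an animal were summed, to 48514 and 57864, so that 1 UMI was worth 20.6 CPM in animal 1 and 17.3 in animal 2. Levels below are CPM, a gene's UMIs per 1000000 UMIs of such a sum, and intervals and floors cover counting error only.

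The label was checked against 12 endothelial markers, of which 9 carried a symbol in the files. FLT1 (a VEGF receptor) and CLDN5 (claudin-5) are markers by which such nuclei are labelled and are given as a check. FLT1 stood at 2948 and 2281 CPM in the animals and CLDN5 at 247 and 657, against at most 66.8 and 1.59 in any sum of another subclass. PTPRB, the phosphatase that acts on the TIE2 receptor, stood at 1360 and 1417 against at most 9.69. TEK (TIE2 itself) stood at 1134 and 1071, ERG (an ETS transcription factor of endothelium) at 701 and 1002, and ADGRL4 (an adhesion receptor of vessels) at 660 and 968, each against at most 1.59 in the sums of the others. All Endo values of these 6 genes lay above every value of the other subclasses. At least 3 of the 9 markers had a UMI in 63 of the 65 Endo nuclei (96.9%, interval 89.3 to 99.6), against 4 of 4047 OD, 1 of 2089 Astro, 0 of 1343 OPC and 0 of 723 Micro nuclei.

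Other markers were weaker or shared. CDH5 (VE-cadherin) had 4 and 6 UMIs in Endo and none in the other non-neuronal subclasses, too few counts to be tested. TIE1 stood at 103 and 190 CPM but reached 86.7 in Micro, and lost its call without animal 2 (adjusted p = 0.085). KDR, the main signalling receptor for VEGF, had 6 UMIs in 4 nuclei, all of library 1B, and none in animal 2, while OD averaged 63.8 CPM. KDR therefore did not mark these nuclei at this depth.

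Depth was set beside the detection of the markers. A UMI of FLT1 was found in 87.7% of Endo nuclei, and in 3.53% of OD to 11.3% of Astro nuclei and 11.6% of neurons, which had a median of 7761 UMIs. After each nucleus was thinned to 700 UMIs (none was shallower) the shares were 70.8% in Endo and 1.14 to 4.12% in the other non-neuronal subclasses. The same thinning left TEK in 52.3% of Endo nuclei, PTPRB in 55.4%, ERG in 46.2%, ADGRL4 in 36.9% and CLDN5 in 26.2%. TIE1 was left in 9.23% of Endo and 6.09% of Micro nuclei, and KDR in 3.08% of Endo and 4.32% of OD nuclei, so that neither share set Endo apart.

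**Figure D1:**
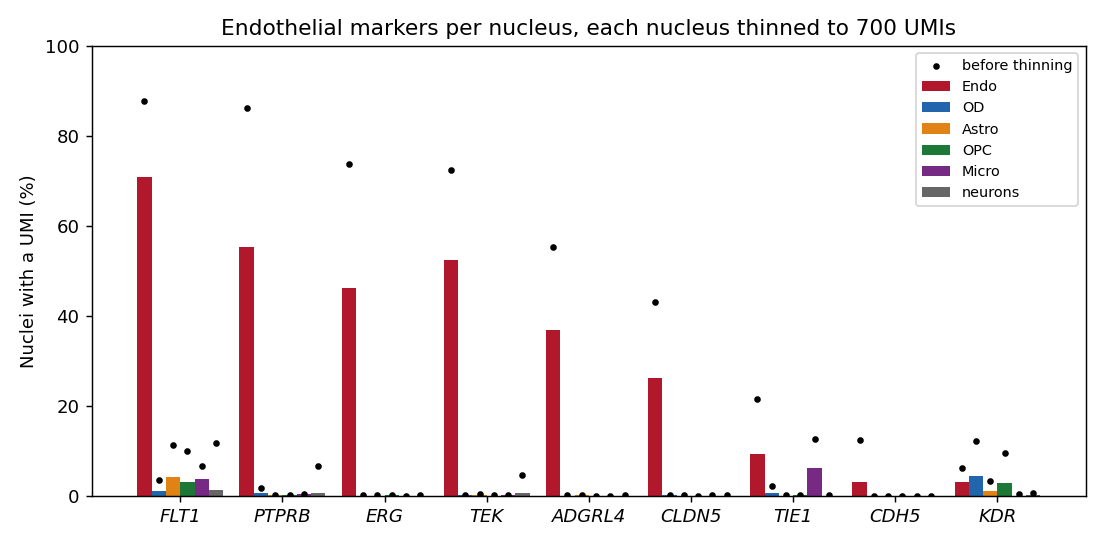
Percent of nuclei with at least 1 UMI of 9 endothelial markers, by subclass and in neurons, with bars after thinning to 700 UMIs per nucleus and dots before thinning. After thinning FLT1, PTPRB, TEK, ERG, ADGRL4 and CLDN5 stand at 26.2 to 70.8% in Endo and at 4.12% or less elsewhere, while before thinning FLT1 reaches 11.6% in neurons. TIE1 is shared with Micro and KDR with OD.

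Markers of other cells were summed in the same nuclei. Microglial markers (6 of 6 with a symbol) and those of perivascular macrophages (4 of 4) were at 0 in Endo. Of the pericyte and smooth muscle markers 10 of 12 were at 0, PDGFRB and MYH11 among them, and the list gave 3 and 2 UMIs in the animals. Of the fibroblast and leptomeningeal markers 8 of 11 were at 0, COL1A1 and DCN among them, and the 12 and 18 UMIs of that list came mostly from CEMIP (8 and 17). Oligodendrocyte markers summed to 598 and 69.1 CPM (16122 and 16508 in OD), precursor markers to 371 and 86.4 (4983 and 5067 in OPC), astrocyte markers to 227 and 328 (21114 and 20260 in Astro) and neuronal markers to 557 and 1037 (5887 and 5704 in neurons). Animal 1's oligodendrocyte and precursor sums were thus the higher ones, and they came mainly from single nuclei. A nucleus of library 1B held 24 of that animal's 29 oligodendrocyte UMIs, and a nucleus of library 1A held all 18 of its precursor UMIs. Counting 2 more with 11 and 18 neuronal UMIs, 4 Endo nuclei held 10 or more UMIs of another list. The doublet caller Scrublet, run by the authors, marked 8 of 65 Endo nuclei (12.3%) against 0.297% of OD to 3.69% of Astro nuclei. The fit across genes was repeated without the doublet calls and without these 4 nuclei.

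Genes were then compared between the Endo sums and the other subclasses. With edgeR's quasi-likelihood test on 10 sums (5 subclasses in 2 animals), 748 of 13483 genes (5.55%) were higher in Endo than the mean of the other 4 subclasses at a Benjamini-Hochberg adjusted p under 0.05, and 881 (6.53%) were lower. Of these, 566 higher and 704 lower genes had a symbol. Higher than in each of the 4 others, by 4 separate contrasts, were 330 genes (2.45%), 254 of them with a symbol. The subclasses had been drawn from clusters of these same counts, so the test says how far levels differed beyond the spread between 2 animals and not that the subclass exists. When every nucleus was relabelled from other genes than those tested, with profiles of the other animal, 750 genes were higher (5.55%) and 966 lower (7.15%). Of the 748, 730 were shared. Those profiles were built from the deposited labels, and 93.1 to 100% of the Endo nuclei of an animal got that label again. The refit thus nearly repeats the deposited labels and cannot answer this point. The median log2 difference of all genes was -0.65, and the balance of calls moved with the scaling: RLE scaling gave 812 higher and 627 lower genes and DESeq2 gave 1023 and 434, against 748 and 881. Without the doublet calls 695 were higher and 858 lower, and without the 4 nuclei holding other cells' RNA 755 and 1091.

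The 15 genes with the largest fitted difference, at least 10 UMIs in each animal and the highest level in Endo, were ADGRL4, EGFL7, MECOM, ERG, EBF1, CGNL1, PGM5, TEK, LEF1, ADGRF5, ZNF366, CD93, CLDN5, DIPK2B and SEMA3G. EGFL7, a protein that endothelial cells secrete into their matrix, stood at 1958 and 2039 CPM, 115-fold above Micro, the next subclass (log2 difference from the mean of the others 11.13 ± 0.26 SE, adjusted p = 6.8e-17). LEF1, a transcription factor at the end of the Wnt pathway, stood at 2206 and 1573 against at most 3.14 elsewhere (9.73 ± 0.27, adjusted p = 1.5e-16). The transcription factors ERG, MECOM (309 and 570, with 2 UMIs in all other subclasses together), EBF1 (1525 and 1071, at most 23.9 elsewhere) and ZNF366 (1196 and 1020, at most 35.1, in Micro) belonged to the same set.

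The other genes were of several kinds. ADGRF5, an adhesion receptor like ADGRL4, stood at 866 and 1313 CPM against at most 3.77. CD93, a lectin-like receptor of endothelium, stood at 309 and 242 against at most 0.524. CGNL1 (paracingulin, at the inner face of cell junctions) stood at 330 and 467 against at most 0.622, and PGM5, known from cell-matrix and cell-cell contacts, at 825 and 467 against at most 2.37. SEMA3G, a semaphorin that arterial endothelium secretes, stood at 412 and 1106 against at most 7.97, and DIPK2B at 289 and 328 against at most 0.948. The naming rule itself required the highest level in Endo in both animals. Fitted differences of genes at or near 0 in other subclasses depend on the prior count of the fit and are not bounds. Some genes without a symbol were as restricted: ENSMODG00000048291 stood at 907 and 674 CPM and ENSMODG00000015038 at 412 and 899.

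**Figure D2:**
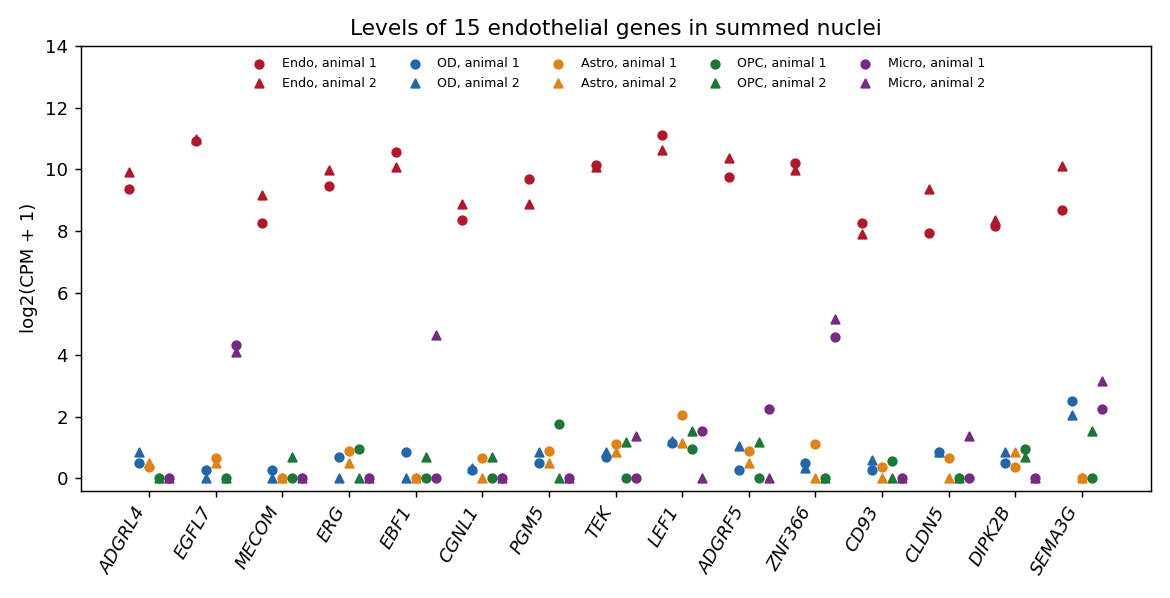
Levels, as log2(CPM + 1), of 15 genes in the sums of 5 non-neuronal subclasses, 1 point per animal. The rule that named these genes required the highest level in Endo in both animals. Among the Endo points the spread between the animals is widest for SEMA3G and CLDN5.

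Gene lists were drawn up by vessel biology and are described by counts, beside the 5.55% higher and 6.53% lower among all genes. They were chosen with earlier results of these data known, and a gene used only by Endo could pass the filter on low counts only by being high there, so the counts describe these lists and test nothing. Of the endothelial identity genes 23 had a symbol and 18 could be tested, and 15 were higher and none lower (median log2 difference 7.56). Beyond those above, these were FLT1, PTPRB, TIE1, ESAM, ROBO4, NOS3, SHANK3 and FLI1. ROBO4 was called on 3 and 1 UMIs and lost its call without animal 1 (adjusted p = 0.44). FLI1, an ETS factor, stood at 1319 and 1054 CPM in Endo and also at 654 and 643 in Micro, so it was not restricted to Endo. S1PR1 (1 UMI in each animal) and CALCRL (5 UMIs, all in library 1B) did not pass the test, as KDR did not. Against all 17 other subclasses, neurons included, all 3 were higher (adjusted p = 0.0018 for KDR, 0.042 for S1PR1 and 0.015 for CALCRL). SOX7 (8 and 5 UMIs) and GATA2 (3 and 4), transcription factors of endothelium, had too few counts to be tested, and SOX7 had none in the other non-neuronal subclasses.

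**Figure D3:**
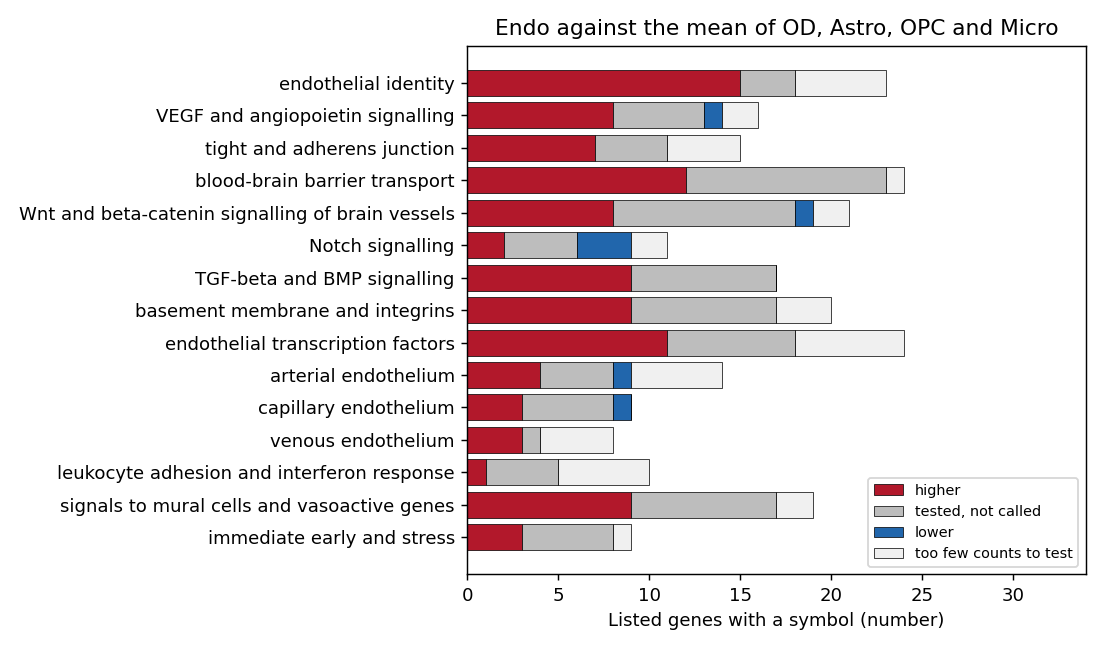
For each of 15 gene lists, the number of members with a symbol that were higher in Endo, not called, lower, or had too few counts to be tested. The identity list has 15 higher members and no lower one, whereas the Notch list has 2 higher and 3 lower.

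Junction genes were higher in 7 of 11 tested members, with none lower (median 1.55). Claudin-5 was followed by OCLN (occludin, its partner in the tight junction), at 82.5 and 138 CPM against at most 3.42 elsewhere (log2 difference 7.71 ± 0.91, adjusted p = 2.7e-06). ESAM, an adhesion molecule of endothelial contacts, stood at 227 and 156 against at most 1.59 (7.85 ± 0.72, adjusted p = 3.9e-08). These 3 genes and CGNL1 were nearly absent from the other non-neuronal subclasses. The junction scaffolds were shared. TJP1 (ZO-1), which ties claudins to actin, stood at 1113 and 622 CPM against 105 to 380 (1.17 ± 0.20, adjusted p = 0.00023), and lost the call without animal 1 (0.65, adjusted p = 0.12). CTNNB1 (beta-catenin) stood at 268 and 380 against at most 126, and AFDN (afadin) at 660 and 605 against at most 219. AFDN lost its call against all 17 other subclasses (adjusted p = 0.54), and Sst neurons held 921 CPM. PARD3, MAGI1, CTNND1 and JAM3 were not called. CTNND1 (227 and 242 CPM) was higher with RLE scaling (adjusted p = 0.048), with DESeq2 (0.030) and in 3 further refits, and MAGI1 was lower against all 17 other subclasses (0.014). JAM3 stood at 103 and 17.3 CPM beside 584 in OD and was lower with the animal as a block (log2 -1.89, adjusted p = 0.012) and in 3 further refits.

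Of 23 tested genes of transport across the barrier 12 were higher and none lower (median 1.68). SLC2A1 (GLUT1, the glucose carrier of the barrier) stood at 1072 and 726 CPM, 8.91-fold above Astro, the next subclass (log2 difference 4.45 ± 0.24, adjusted p = 4.9e-12), and had a UMI in 47 of 65 nuclei. TFRC, the transferrin receptor that brings in iron, stood at 515 and 397 against at most 14.3. MFSD2A, the carrier of omega-3 lipids that also holds down vesicle traffic, stood at 165 and 173 against at most 22.2. SLC7A5 (LAT1, of large neutral amino acids) stood at 165 and 311 against at most 55.5. Of its 26 UMIs 11 came from 1 nucleus, and library 2B held 146 CPM against 459 in 2A. All 4 genes were higher than in each other subclass, and their values did not overlap those of any of them.

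Further carriers had a broader base. ATP10A, a lipid flippase, stood at 4019 and 2765 CPM in Endo and was found in 63 of 65 nuclei, with Micro next at 495. SLC39A10, a zinc importer, stood at 3009 and 1953 (Micro 578), and SLC6A6, the taurine carrier, at 1134 and 1849 (Micro 512). CAV1, the coat protein of caveolae, stood at 82.5 and 156 against at most 7.46, whereas its partner CAVIN2 (144 and 156) was matched by OD at 140. SLC7A1, a carrier of cationic amino acids, stood at 144 and 156 beside 97.7 in Micro and lost its call without either animal (adjusted p = 0.16 and 0.32) and against all 17 other subclasses (0.21). LRP8, a lipoprotein receptor, stood at 61.8 and 207 beside 158 in Micro and lost its call without animal 2 (0.56). SLCO2B1, an organic anion carrier, stood at 866 and 380 in Endo and higher in Micro, at 1558. Some carriers best known from rodent barrier endothelium were scarce. SLCO1C1, the thyroxine carrier, had 2 and 0 UMIs in Endo and 653 CPM in Astro. SLC16A1 (MCT1, of lactate), SLCO1A2 and SLC22A8 had none in Endo, where 3 counts over both animals would be 28.2 CPM. SLCO1A2 stood at 154 in Astro, while SLC16A1 reached only 18.9 and SLC22A8 6.56 in any other sum, levels that this depth could not have shown in Endo. SLC22A8 had too few counts to be tested, and the other three did not pass the test.

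In the Wnt list 8 of 19 tested members were higher and 1 was lower (median 0.73). LEF1, described above, had a UMI in 57 of 65 Endo nuclei. TCF7L1, its relative, stood at 371 and 363 CPM against at most 82.2 (log2 difference 4.46 ± 0.38, adjusted p = 1.3e-08). TCF7L2, another factor of this family, stood at 515 and 225 against 450 to 1118 in the other subclasses and was lower (-1.53 ± 0.26, adjusted p = 0.00021); against the mean of all 17 other subclasses, neurons included, it was higher (3.85). Against the other non-neuronal subclasses LEF1 and TCF7L1 were thus the members of this family called higher and TCF7L2 the one called lower. TCF7, with 1 and 0 UMIs in Endo and 51.0 CPM in Astro, was not called (-2.07, adjusted p = 0.26). FZD6, a Frizzled receptor, stood at 598 and 294 (Astro 167). The co-receptor parts TSPAN12 (61.8 and 69.1) and ADGRA2 (GPR124, 103 and 121) were higher than the mean of the others, each on 12 UMIs or fewer. FOXF2, a barrier transcription factor, stood at 20.6 and 104 against at most 3.77, and APCDD1, a Wnt target, at 165 and 34.6 (Astro 107). TSPAN12 lost the call without either animal, ADGRA2 and FOXF2 without animal 2 and APCDD1 without animal 1. FZD4, the receptor for norrin, had 1 UMI in each animal, and AXIN2, a general Wnt target, stood at 103 and 34.6. Neither passed the test, though FZD4 was higher with DESeq2 (adjusted p = 0.026) and against all 17 other subclasses (0.013). The ligands WNT7A, WNT7B and NDP (norrin) had no UMI in Endo, while WNT7A averaged 59.0 CPM in OPC and NDP 110 in Astro.

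VEGF and angiopoietin genes were higher in 8 of 14 tested members (median 2.34). Beside FLT1, TEK, TIE1 and PTPRB these were PLXND1, the receptor of semaphorin 3E (268 and 294 CPM against at most 28.0), PLCG1, an enzyme of VEGF receptor signalling (392 and 328 against at most 91.8), FLT4 (VEGFR3) and ANGPT2. FLT4 stood at 82.5 and 104 and higher still in Micro, at 136. ANGPT2, an angiopoietin released by endothelium, stood at 61.8 and 86.4 on 3 and 5 UMIs (adjusted p = 0.033), and lost the call without the doublet calls (adjusted p = 0.057) and without either animal. The receptors NRP1 (82.5 and 51.8) and NRP2 (1 and 0 UMIs) were not called. VEGFA had 1 and 0 UMIs in Endo and 573 CPM in OPC (log2 -4.18 ± 1.35, adjusted p = 0.046), a call lost in 9 of the refits (adjusted p = 0.055 to 0.48), with RLE scaling, DESeq2, relabelled nuclei and either animal left out among them.

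The Notch list was mixed, with 2 of 9 tested members higher and 3 lower (median -1.59). JAG2, a Notch ligand, stood at 1979 and 2074 CPM against 26.8 to 159 in the other subclasses (log2 difference 4.29 ± 0.19, adjusted p = 1.8e-13). JAG2 had a UMI in 62 of the 65 nuclei and in every library stood between 1805 and 2373. JAG1 stood at 268 and 311 against at most 85.5 (2.20 ± 0.37, adjusted p = 0.00019). The ligand most tied to arteries elsewhere, DLL4, had 1 UMI in each animal. The receptor NOTCH1 stood at 124 and 51.8 (Astro 161) and was not called, and NOTCH2, with 1 and 0 UMIs against 380 CPM in Micro, was lower. The nuclear partners RBPJ (103 and 104 against 118 to 327) and MAML2 (350 and 899 against 619 to 2369) were also lower. Against all 17 other subclasses MAML2 (1.90), NOTCH1 (4.64) and HEY1 (4.43) were higher, and NOTCH2 and RBPJ were not called. The targets HEY1 (0 and 3 UMIs) and HEY2 (0 and 2) were found in animal 2 only.

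BMP and TGF-beta genes were higher in 9 of 17 tested members with none lower (median 2.10). The BMP feedback inhibitor SMAD6 stood at 928 and 985 CPM, 7.90-fold above Micro (log2 difference 6.20 ± 0.38, adjusted p = 5.7e-11), and SMAD7 at 103 and 242. The BMP targets ID1 (371 and 311 against at most 6.85) and ID3 (103 and 121 against at most 6.56) were restricted to Endo, while ID2 had 0 and 1 UMIs. The receptor BMPR2 stood at 1072 and 899 (Micro 319) and the ligand BMP6 at 206 and 173 (OPC 36.0). By library BMP6 varied, with 568 CPM in 1A and 58.1 in 1B, and 98.4 in 2A and 256 in 2B. Other genes of the BMP branch did not pass the test, namely the ligand BMP4 and the regulator BMPER (no UMI in Endo), the receptor BMPR1A (1 and 0 UMIs), the mediators SMAD1 (82.5 and 207) and SMAD5 (206 and 138) and ID2. SMAD1 was higher against all 17 other subclasses (adjusted p = 0.002). On the TGF-beta branch the receptors TGFBR1 (20.6 and 86.4) and TGFBR2 (124 and 34.6, Micro 713) were not called. TGFB1 (0 and 5 UMIs), TGFB2 (4 and 11) and the co-receptor TGFBR3 (2 and 3) were called on few counts. TGFB1 had its UMIs in animal 2 only. Without that animal no UMI was left in Endo, so the fitted -4.73 depended on the prior count and shows no reversal. TGFB2 and SMAD7 lost their calls without animal 2. TGFBR3 lost its call without either animal and against all 17 other subclasses (1.22, adjusted p = 0.33), and Lamp5 neurons held 133 CPM.

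Basement membrane and integrin genes were higher in 9 of 17 tested members (median 2.17). The collagen IV chains COL4A1 (124 and 242 CPM against at most 6.64) and COL4A2 (453 and 397 against at most 11.4), which form the net of the vessel's basement membrane, were higher than in each other subclass. The laminin chains LAMA5 (144 and 311), of the endothelial membrane, and LAMA2 (371 and 138) were also higher, the latter against at most 9.57. Among the receptors for this matrix, ITGA6, which binds laminins, stood at 453 and 225 (at most 9.41) and ITGA1, which binds collagens, at 309 and 225 (at most 19.2). SPARC, a secreted matrix protein, stood at 309 and 467 and equally high in Astro, at 387. LAMB2 (2 and 8 UMIs), HSPG2 (3 and 8) and SPARC lost their calls without animal 2. LAMC1, LAMA4 and ITGB1 were not called, LAMA4 with 460 in OPC. ELN (elastin, chosen after its values were seen) stood at 515 and 830 CPM, with a UMI in 27 of 65 nuclei.

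Transcription factors of endothelium were higher in 11 of 18 tested members with none lower (median 1.82). ETS1 stood at 742 and 363 CPM (Micro 205) and ELK3 at 350 and 449 (Micro 154), so that ERG, FLI1, ETS1 and ELK3, all of the ETS family, were higher, whereas ETV6 and ETS2 were not called. ETV6 turned from -0.29 to 0.96 against all 17 other subclasses, where it was called. FOXP1 stood at 2144 and 1780 (Micro 429) and FOXO1 at 721 and 346 (Astro 387), the latter losing its call without animal 1 (adjusted p = 0.39). TCF4, a partner of many helix-loop-helix factors, stood at 2020 and 2903 against at most 1351 in other non-neuronal sums and beside 2410 in Vip neurons, and lost its call without animal 2 (0.45, adjusted p = 0.15). NR2F2, the vein factor, was called on 2 and 1 UMIs. Its call was lost without either animal and against all 17 other subclasses (adjusted p = 0.086). KLF4 (0 and 4 UMIs) and BCL6B (1 and 6) had too few counts to be tested. MEF2C stood at 268 and 622 beside 4554 in Micro and was not called, but was lower against all 17 other subclasses (adjusted p = 0.00014).

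Genes by which endothelium acts on mural cells and vessel tone were higher in 9 of 17 tested members (median 2.95). PDGFD, a growth factor for cells of the vessel wall, stood at 907 and 1780 CPM against at most 3.14 (log2 difference 8.84 ± 0.31, adjusted p = 5.7e-15), and PDGFB, which recruits pericytes, at 61.8 and 86.4. Both the source and the maturing enzyme of endothelin were present, EDN1 at 268 and 121 (at most 0.622 elsewhere) and ECE1 at 392 and 380 (Astro 103). NOS3, the endothelial nitric oxide synthase, stood at 289 and 225 against at most 2.05, and PTGIS, the prostacyclin synthase, at 165 and 259 against at most 1.87. The nitric oxide receptor chain GUCY1A1 stood at 721 and 605 (Astro 36.7), but its partner GUCY1B1 had 2 and 4 UMIs and was not called, and was lower against all 17 other subclasses (adjusted p = 0.0041). PIEZO1, the channel that senses flow, stood at 268 and 207 (Micro 67.4), and PIEZO2 had none in Endo. PDGFB lost its call without the doublet calls (adjusted p = 0.076) and without animal 2, as did EDNRB (41.2 and 86.4).

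Genes of leukocyte entry and interferon response were sparse. B2M, of the class I antigen complex, stood at 124 and 207 CPM (Micro 51.4) and was the 1 member called higher of 5 tested; it lost the call without animal 2 (adjusted p = 0.079). The adhesion molecules VCAM1 (3 and 4 UMIs) and SELP (5 and 3) had too few counts to be tested, and SELE, CD74, TAP1, IRF1 and TLR4 had none in Endo. Of the immediate early and stress genes FOS, JUN and DUSP1 were higher among 8 tested. FOS stood at 20.6 and 225, on 14 UMIs of which 6 came from 1 nucleus, and lost its call without animal 2. JUN stood at 61.8 and 69.1 and lost its call in 4 of the refits, and DUSP1 stood at 82.5 and 69.1 against at most 1.59. EGR1, ATF3 and JUNB, with 1 or 2 UMIs in all, were not called, JUNB being higher with DESeq2 (adjusted p = 0.04).

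Vessel segments were read from lists of arterial, capillary and venous genes. Of the arterial list SEMA3G, BMX (1 and 8 UMIs), EFNB2 (186 and 328 CPM, at most 48.2 elsewhere) and FBLN5 (247 and 242, at most 7.11) were higher among 9 tested. FBLN5 had 10 of its 26 UMIs in 1 nucleus. STMN2, a neuronal gene also listed there, was lower (adjusted p = 0.049), a call lost in 8 of the refits (adjusted p = 0.057 to 0.33). Of the capillary list MFSD2A, TFRC and SLC7A5 were higher among 9 tested and SPOCK2, with no UMI in Endo, was lower, by at least 4.35-fold against the mean of the others, a call lost with equal numbers of nuclei. Of the venous list NR2F2, EPHB4 (1 and 4 UMIs) and TSHZ2 (206 and 397 CPM, at most 36.8 elsewhere) were higher among 4 tested, and EPHB4 lost its call without animal 2 (adjusted p = 0.29).

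The arterial and capillary genes were also counted per nucleus. The genes for this view, 7 arterial and 3 capillary ones, were trimmed after their values were seen, so the counts are a description. At least 3 arterial UMIs were found in 8 of 29 nuclei of animal 1 and 18 of 36 of animal 2, with up to 21 in a nucleus. At least 3 capillary UMIs were found in 8 nuclei of each animal. Both were found in 3 nuclei, all of animal 1. Of the nuclei with 3 or more capillary UMIs, 5 of 8 in animal 1 and 7 of 8 in animal 2 held no arterial UMI, as did 18 of all 29 and 12 of all 36. Animal 1 thus showed no difference from its nuclei as a whole. Of the nuclei with 3 or more arterial UMIs, 4 of 8 and 11 of 18 held no capillary UMI, as did 14 of all 29 and 19 of all 36, shares close to those of all nuclei. Nuclei of either kind thus occurred in both animals. At a median of 1414 UMIs a nucleus without a UMI of a gene may still express it.

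Genes lower in Endo included many with no count there. The 5 with the most negative fitted difference had no UMI in any Endo nucleus and are given as bounds, set by 3 counts over both animals (28.2 CPM). PAG1, a membrane adaptor of Src kinases, stood at 77.7 to 1064 CPM in the other sums, so that it was at least 12.4-fold lower in Endo than their mean. DPF3, a subunit of a chromatin remodeller, was at least 10.3-fold lower (Astro 568), STON2, an endocytic adaptor, at least 9.32-fold (Astro 632), HEPACAM, an adhesion protein of glia, at least 6.86-fold (Astro 384) and RASSF2, a Ras-binding protein, at least 6.20-fold (OD 388). PAG1 was highest in Micro. Against all 17 other subclasses the calls of DPF3, STON2, HEPACAM and RASSF2 were lost (adjusted p = 0.058 to 0.3). In all, 145 of the 881 lower genes had no UMI in Endo. With the other subclasses drawn down to the number of Endo nuclei, 255 genes were lower and 526 higher among the 2737 that could then be tested.

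Neurons were not part of these comparisons, and some genes that set Endo apart from glia were shared with them. Of the 254 symbol-bearing genes higher than in each other non-neuronal subclass, 19 (7.48%) had a neuronal subclass with a higher level, and 74 stood more than 10-fold above all 17 other subclasses. TEK reached 138 CPM in L5NP neurons, JAG2 516 in IT_A, PDGFD 238 in Lamp5 and PGM5 38.0 in L5NP, all below Endo. CEMIP was among the 19, with 165 and 294 in Endo and 404 in Vip neurons.

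The Endo nuclei of the animals were set side by side, with 1 animal against 1 and so with no test. Over 946 genes with a symbol and at least 20 UMIs the median ratio of animal 2 to animal 1 was 0.991, and the 95% counting interval of the ratio excluded 1 for 153 (16.2%). Among the 168 of these genes that were higher than in each other subclass it excluded 1 for 36 (21.4%), 17 higher in animal 2 and 19 in animal 1. In 22 of the 36 both libraries of 1 animal also lay above both of the other. These intervals treat UMIs as independent, although many UMIs of a gene can come from 1 nucleus, so they can be too narrow. The percentages are therefore not shares of genes that differ between animals. The genes below were chosen after these values were seen. PTPRB, TEK, JAG2 and EGFL7 kept ratios between 0.945 and 1.05. PDGFD had a ratio of 1.96 (interval 1.37 to 2.86), with 993 and 872 CPM in the libraries of animal 1 and 1805 and 1752 in those of animal 2. Of its 147 UMIs 22 came from 1 nucleus. ATP10A had a ratio of 0.688 (0.555 to 0.852) and LAMA2 of 0.373 (0.140 to 0.901), both lower in both libraries of animal 2. PLAT, the tissue plasminogen activator, stood at 1896 and 778, a ratio of 0.410 (0.281 to 0.592).

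In CLDN5, SEMA3G and S100A4 a library or a nucleus carried much of the difference. CLDN5 had a ratio of 2.65 (1.36 to 5.58), but library 2A (295 CPM) lay below 1B (320), and 29 of the 38 UMIs of animal 2 came from 2B. SEMA3G had a ratio of 2.68 (1.60 to 4.68), with 49 of the 64 UMIs of animal 2 in 2B and library 2A (492) below 1A (568). S100A4, a calcium-binding protein, had 1 and 26 UMIs, of which 22 came from 1 nucleus. VIM (vimentin, an intermediate filament protein) had 4 and 26 UMIs, a ratio of 5.45 (1.89 to 21.5), and stood higher in both libraries of animal 2. A nucleus of library 2A held 8 of its UMIs (26.7%), and the nucleus of 2B with 22 UMIs of S100A4 held 5. Age and handling moved with the animal, and their part in these ratios was not tested.

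**Figure D4:**
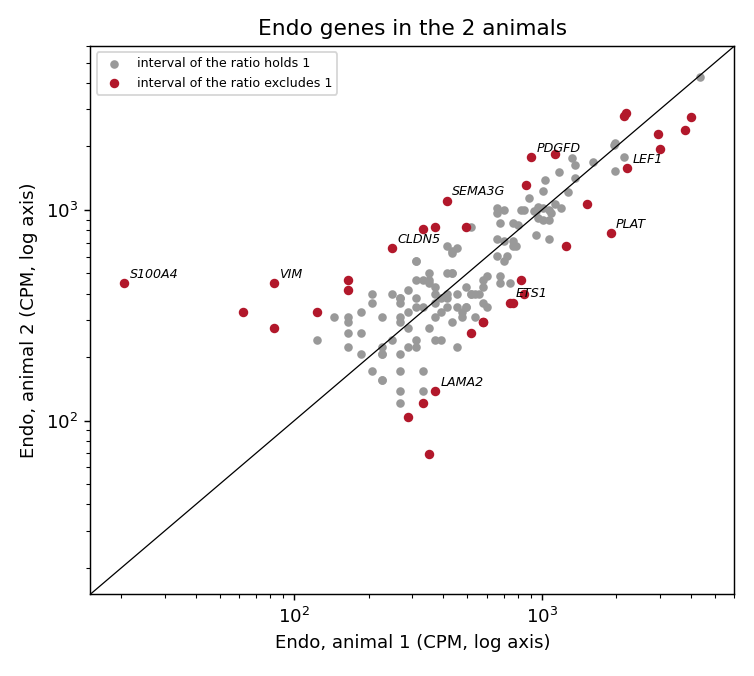
Levels in the Endo nuclei of animal 1 against animal 2, in CPM on log axes, for genes higher than in each other subclass and with at least 20 UMIs. Genes in red, 36 of 168, have a 95% counting interval of the ratio that excludes 1, and most of the rest lie along the diagonal. The interval covers counting error only.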

How the data were processed

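Nuclei of the visual cortex of 2 opossums were measured with 10x 3′ chemistry in 4 libraries. The deposited matrices hold UMI counts per gene and nucleus, which the authors made with Cell Ranger 6.1.1 per the labels (intronic reads included, ASM229v1 genome, Ensembl genes with extended 3′ ends). The header of the matrices names another version of Cell Ranger. The deposited metadata gives the subclass of each nucleus, the quality call and the Scrublet doublet score, a fraction from 0 to 1 with its call. Counts of an animal's libraries were summed per subclass and fitted with edgeR 4.0.16 (R 4.3.3; TMM, filterByExpr, quasi-likelihood test), with Benjamini-Hochberg adjustment over all genes tested at 0.05. The scripts were tested on simulated data. The members and gene lists were chosen with earlier results of these data known. Symbols came from the files, for 11590 of 30800 genes, and listed genes without one were not analysed here.

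Genes named by rule were the 15 with a symbol and the largest log2 difference among genes with adjusted p under 0.05, at least 10 UMIs in each animal and the highest level in Endo in both animals, the 5 most negative ones with the lowest level in Endo, and list members. Alternatives were RLE scaling, DESeq2 1.42.0, 2 other low-count filters, the animal as a block, no doublet calls, equal numbers of nuclei, labels from other genes, all 17 subclasses, each animal left out and, added after the data were seen, 4 Endo nuclei with RNA of other types removed. Sums of the same animal share that animal. The correlation of the Endo deviation with that of the same animal's OD, Astro, OPC and Micro sums was 0.0434, 0.0792, 0.0552 and 0.0444 over 6074 genes. With 2 animals, p-values measure only the spread between these. A search for motifs in promoters was not run, since no sequences were used here.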

Additional observations from a re-analysis of the deposited data

Results flagged for a closer look

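Markers of other vascular cells were counted together in some nuclei that the comparisons did not use. Of 276 nuclei that the authors left out of the subclasses as ambiguous non-neuronal ones, 5 (1.81%, exact 95% binomial interval 0.591 to 4.18) had UMIs of at least 3 pericyte and smooth muscle markers, against 0 of 65 Endo nuclei (which allows up to 5.52% by the same interval), 0 of 4047 OD, 0 of 1343 OPC and 0 of 723 Micro nuclei, 2 of 2089 Astro nuclei and 7 of 24497 neurons. The 276 nuclei together held 111 UMIs of MYH11, a smooth muscle myosin (142 CPM, at most 2.09 in the labelled non-neuronal sums and 49.5 in L6b neurons), and 27 of PDGFRB, the pericyte receptor (34.5 CPM), which was at 107 in Astro. Both genes were at 0 in Endo.

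In the same 276 nuclei, 7 (2.54%, 1.03 to 5.16) had UMIs of at least 3 fibroblast and leptomeningeal markers, against 0 in each labelled non-neuronal subclass and 44 of 24497 neurons. The 276 nuclei held SLC47A1 at 28.1 CPM (22 UMIs) and SLC6A13 at 16.6 (13 UMIs), against at most 3.32 and 5.24 in the labelled non-neuronal sums. The commoner markers CEMIP, BNC2 and FBLN1 were below a labelled subclass: CEMIP stood at 179 CPM beside 229 in Endo and 404 in Vip neurons, BNC2 at 71.6 beside 652 in Micro, and FBLN1 at 12.8 beside 14.5 in Astro. None of the 276 had UMIs of 3 or more endothelial markers, and FLT1 gave 37 UMIs in them. The markers were too few to name these nuclei, and no test was made.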

How the results depend on the processing

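Of 104 called genes that the text names or lists, 66 kept their direction and call in every alternative that tested them. Higher genes numbered 748 and fell to between 436 and 552 when an animal's Endo sum was left out, and lay between 526 and 1023 otherwise. Lower genes numbered 881, and 434 with DESeq2, 255 with equal numbers of nuclei (of 2737 tested), 327 to 524 with an animal's Endo sum left out and 1471 against all 17 other subclasses. Genes higher than in each other subclass numbered 330, and 206 with equal numbers of nuclei, 206 to 253 with an animal left out and 311 to 415 otherwise. Where 1 Endo sum was left out, the other was assumed to vary like the other subclasses. With the animal as a replicate block 778 genes were higher, 944 lower and 339 higher than in each other subclass, and the block ended no call among the 104 genes and added that of JAM3. Directions turned for TCF7L2 (3.85), MAML2 (1.90), ETV6 (0.96) and MEF2C (-1.25) against 17 subclasses. TGFB1 ranged from -4.73, where no UMI was left in Endo, to 5.07 with an animal left out. The cause was not tested. The share of Endo was 0.619 to 1.01% with an animal left out, 0.198% of all labelled nuclei, 0.721% with left-out nuclei added, 0.722% without doublet calls and 0.767% without the 4 nuclei holding RNA of other types. Depth limited single genes, since 3443 tested genes had no UMI in Endo and 2495 genes had 10 or more.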

Other observations

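Beyond the lists, 4 of the genes with most UMIs in Endo among those higher than in each other subclass are given here. They were chosen after their values were seen, and UMI numbers do not rank levels between genes. The receptor phosphatase PTPRG stood at 4370 and 4251 CPM in the animals, 4.94-fold above OPC, the next non-neuronal subclass. Its relative PTPRM, which binds its own kind at cell contacts, stood at 2144 and 2782, 3.48-fold above Astro but beside 2331 in Sst neurons. SPTBN1, a spectrin of the membrane skeleton, stood at 2185 and 2886, 2.43-fold above Astro. LDB2, a cofactor of LIM transcription factors, stood at 3793 and 2402, 5.22-fold above Astro and beside 2678 in L5PT neurons. For each of these 4 genes both animals lay above every sum of the other non-neuronal subclasses, and for PTPRM and LDB2 a neuronal subclass lay between the animals' values.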
